A study of Homo sapiens with 20 samples.

Results

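S100 proteins are small calcium-binding proteins that pair as dimers and change shape when they take up calcium, which lets them grip other proteins. Most of their genes stand in a row on the long arm of chromosome 1, inside the epidermal differentiation complex, and several are among the most abundant mRNAs of keratinocytes. Some members are released by keratinocytes at wounds and in inflamed skin, where they bind metal ions and act on receptors of other cells. The 10 members described here are S100A2, S100A4, S100A6, S100A7, S100A8, S100A9, S100A10, S100A11, S100A14 and S100A16. They are a list of S100 genes of the epidermis, set by name and not by a threshold on a measured value but drawn up with earlier results of these data known, and they are 10 of the 57500 genes listed for each library.

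The RNA came from NTERT cells, an immortalized human keratinocyte line that can still differentiate. WT NTERT and GCN2KO NTERT cells were grown as monolayers, moved to medium with added calcium and serum, and were then left unwounded or subjected to high density wounding (HDW), in which rows of pipet tips are drawn across the well in both directions so that a large share of cells lies near a wound edge. RNA was taken 6 h after HDW. Each genotype gave 5 unwounded and 5 HDW libraries, 20 in all. GCN2, encoded by EIF2AK4, is a kinase that phosphorylates the translation factor eIF2 when amino acids run short, and GCN2KO cells were an early passage pool edited with Cas9, not a single clone. The study describes its WT NTERT cells as given a control guide RNA. How many edited pools were sequenced is not given, so effects of the genotype and of the pool cannot be told apart here. The labels do not say whether the 5 libraries of a group came from separate passages, so p-values measure the spread between these libraries, which may be in part technical.

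EIF2AK4 checked the labels. It had 144 to 158 CPM in WT unwounded, 138 to 149.7 in WT HDW, 28 to 33.5 among GCN2KO unwounded and 28.2 to 33.1 among GCN2KO HDW libraries, with no overlap between genotypes. CPM are normalized read counts, scaled to the same library total with TMM factors over all 20 libraries. The libraries held 14083504 to 34611570 counts, of which the 10 S100 genes took 0.592% to 1.11%. The 7 keratinocyte markers summed to 11517 to 17393 CPM per library. Neutrophils and monocytes are the other rich source of S100A8 and S100A9. The 4 melanocyte markers summed to 1.96 to 3.49 and the 6 fibroblast markers to 23.1 to 36.2. The 8 leukocyte markers summed to 17.6 to 66.1, of which CD14 alone had 12.8 to 33.3 in GCN2KO HDW and 54.8 to 63.1 in WT unwounded libraries, with MPO at 0 counts in every library and PTPRC and FCGR3B at 0 in 3 of the 4 groups each, and the Langerhans cell markers CD207 and CD1A had no count in any library. One technical feature moved with a group. In each library the median of 341 coding genes as short as the members (486 to 1701 exonic bases) was compared with that of 4325 genes over 6000 bases, each gene relative to its own mean over the 20 libraries. The log2 difference was -0.09 to -0.04 in WT unwounded, -0.09 to -0.01 in WT HDW and -0.17 to 0.02 in GCN2KO HDW libraries, but -0.06 to 0.48 in GCN2KO unwounded libraries, where replicates 3 and 5 stood at 0.48 and 0.40. The members' calls in comparisons that use the GCN2KO unwounded group were therefore also computed without those 2 libraries, a choice made after seeing the data. The ratios and the gene lists were not, and the part of this feature in any of these results was not tested. As a description, the members' median log2 level had Pearson r = 0.736 with the short against long difference over the 20 libraries. After removal of group means it was 0.561.

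Per exonic length, the members covered a range from rare to nearly the most abundant transcript of the cell. Levels here are TPM, that is counts per exonic base scaled to the same sum in every library. Exons were merged over all annotated transcripts of a gene, which can exceed the length of a single mRNA, so levels and ranks depend on this choice. S100A9 was the highest member in every group, at 9902 ± 708 (SD, n = 5) TPM in WT unwounded, 8290.0 ± 796 in WT HDW, 14489 ± 2318 among GCN2KO unwounded and 12745 ± 942 among GCN2KO HDW cells. It ranked 2 or 3 among all genes in each group. S100A4 was the lowest at 5.24 to 12.4 TPM and S100A7 the next at 79 to 139 TPM, so both were scarce in cells where the other 8 members had group means of at least 907 TPM. In WT unwounded cells the order from S100A9 down was S100A14, S100A11, S100A2, S100A6, S100A10, S100A8, S100A16, S100A7 and S100A4, and of these neighbours S100A14 and S100A11 had overlapping library ranges. In WT HDW cells S100A11 stood second, and S100A2 with S100A14, S100A10 with S100A6, and S100A16 with S100A8 overlapped as neighbours. In both GCN2KO groups S100A6 stood second, followed by S100A14, S100A2 and S100A11. In GCN2KO unwounded cells S100A10 and S100A8, and S100A8 and S100A16, overlapped, and in GCN2KO HDW cells S100A16 and S100A8 did. The 10 members summed to 28313 ± 1105 (SD, n = 5) TPM in WT unwounded, 29116 ± 1931 in WT HDW, 40479 ± 4209.8 among GCN2KO unwounded and 36687 ± 1789 among GCN2KO HDW cells.

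**Figure D1:**
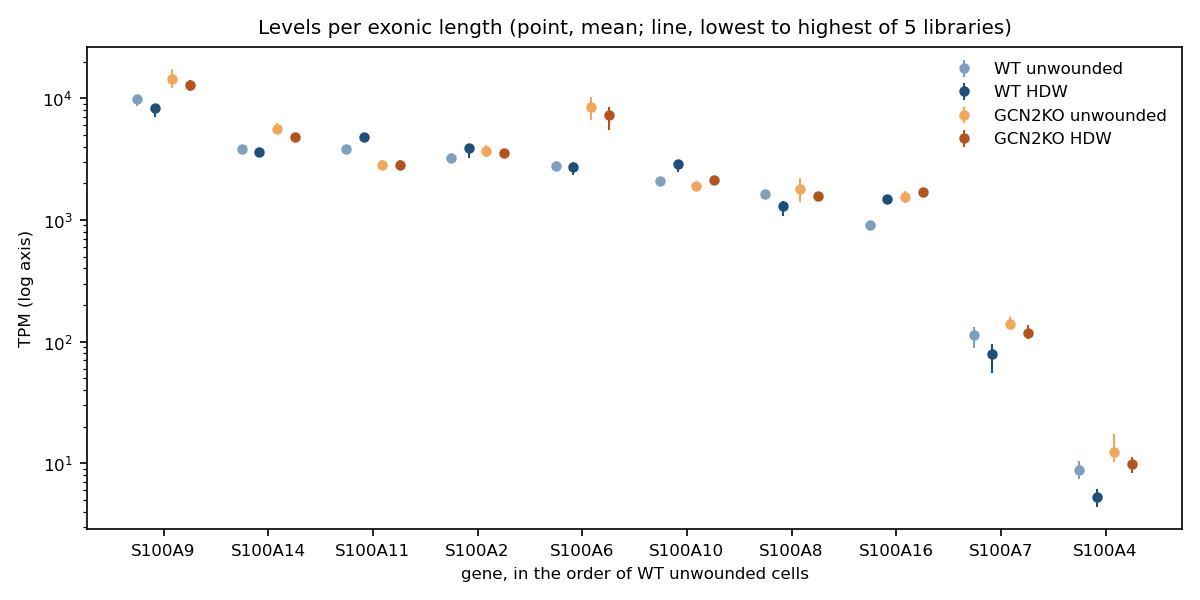
Mean TPM of the 10 S100 genes in the 4 groups on a log axis, with lines from the lowest to the highest of 5 libraries. S100A9 is highest in each group, S100A4 and S100A7 are lowest, and S100A6 rises from 2795 TPM in WT unwounded to 8487 TPM in GCN2KO unwounded cells.

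Across the comparisons the 10 genes did not move as one. A gene is said to have risen or fallen where its edgeR adjusted p was at most 0.05, and a DE gene also moved by 1 or more on the log2 scale, with p-values adjusted over all genes tested. All 10 passed the filter on low counts in every comparison. These are bulk samples, in which fewer cells of a kind and less RNA per cell cannot be told apart. In GCN2KO against WT unwounded cells 7 members rose and 1 fell, where 33.4% of 15348 genes tested rose and 33.1% fell. After HDW 7 rose and 3 fell in GCN2KO against WT cells, where 35.9% of 15855 genes rose and 35.8% fell. With HDW in WT cells 4 rose and 4 fell, where 26.1% of 15348 genes rose and 25.2% fell. With HDW in GCN2KO cells none rose and 2 fell (S100A7 and S100A14), where 11.9% of 15791 genes rose and 10.8% fell; at an unadjusted p under 0.05 the fallen were 6, and DESeq2 in place of edgeR also called 2 fallen and none risen. The response to HDW differed between genotypes for 5 members, each with a lower response in GCN2KO cells, where 12.5% of 16536 genes had a lower and 11.2% a higher one. The median log2 fold change of the members was 0.51, 0.29, -0.026 and -0.28 in these 4 comparisons, against 0.0042, 0.0020, -0.0024 and -0.00097 over all genes tested. The only DE gene among the members was S100A6, in both comparisons of genotypes, where 16.4% of genes in unwounded cells and 14.9% after HDW were DE genes. The shares of DE genes were 4.17% with HDW in WT cells, 0.671% with HDW in GCN2KO cells and 3.31% for the difference of the responses. Over coding genes of like length the median was 0.17 in unwounded cells, -0.0073 after HDW, -0.0037 for HDW in WT cells and -0.17 for HDW in GCN2KO cells. For the difference of the responses it was -0.20, with 19.5% of 688 such genes lower and 3.63% higher. Without GCN2KO unwounded replicates 3 and 5, 5 members rose and 1 fell in the first comparison, 1 fell with HDW in GCN2KO cells (S100A14), and the response differed for 4 (S100A2, S100A10, S100A11 and S100A16). In the comparison after HDW, which uses none of these libraries, the calls were 7 and 3.

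**Figure D2:**
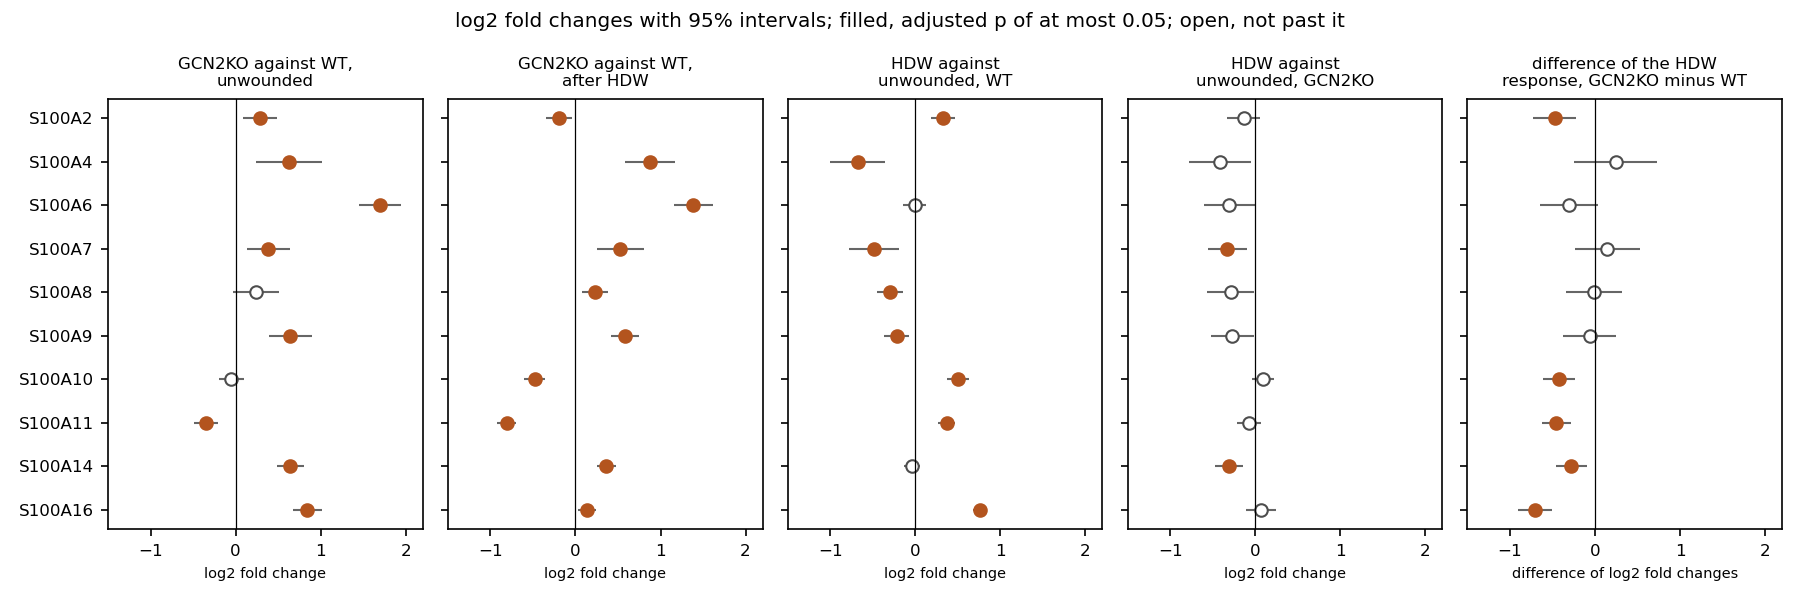
log2 fold changes of the 10 S100 genes in the 4 comparisons, with the difference of the HDW responses on the right, each with its 95% interval. Filled points have an edgeR adjusted p of at most 0.05. S100A6 lies farthest to the right in both comparisons of genotypes (1.70 and 1.38), and S100A10 and S100A11 lie to the left of 0 in GCN2KO against WT after HDW (-0.48 and -0.81).

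The members that serve in defence were taken first. S100A8 and S100A9 pair into calprotectin, which starves microbes by binding zinc and manganese and calls in leukocytes, and S100A7, or psoriasin, also binds zinc and kills bacteria. S100A9 was higher in GCN2KO cells, with or without HDW, and all 3 fell with HDW in WT cells. S100A9 lies at chr1:153357854-153361023, gene ENSG00000163220 on the plus strand of GRCh38, S100A8 at chr1:153390032-153391073, gene ENSG00000143546 and S100A7 at chr1:153457744-153460651, gene ENSG00000143556, both on the minus strand.

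S100A9 had 1407, 1353, 1439.6, 1188 and 1432 CPM in WT unwounded replicates 1 to 5 and 1213, 967, 1153, 1233 and 1303 in WT HDW replicates. In GCN2KO cells it had 2086, 1662, 2735, 1744 and 2405 unwounded and 1796, 1719.8, 1776, 1929 and 1542 after HDW. Every GCN2KO library was above every WT library, while unwounded and HDW libraries overlapped within each genotype. On the log2 scale GCN2KO differed from WT by 0.64 ± 0.12 (SE, adjusted p = 0.000173 by edgeR) in unwounded cells, or 1.56-fold, and 0.58 ± 0.076 (SE, adjusted p = 9.78e-06 by edgeR) after HDW. Without GCN2KO unwounded replicates 3 and 5 the first was 0.43. S100A9 fell with HDW in WT cells, with a log2 fold change of -0.22 ± 0.07 (SE, adjusted p = 0.0169 by edgeR), and the value in GCN2KO cells was -0.27 ± 0.12 (SE, adjusted p = 0.117 by edgeR). The difference of the responses was -0.063 with a 95% interval of -0.37 to 0.25.

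S100A8 had 366, 338, 371, 314 and 368 CPM in WT unwounded replicates and 299, 232, 281, 313 and 312 in WT HDW replicates. GCN2KO cells had 424, 301, 538, 326 and 479 unwounded and 335, 337, 325, 361 and 323 after HDW. GCN2KO unwounded libraries spread from below to above all WT unwounded libraries, while after HDW every GCN2KO library was above every WT library and every WT HDW library was below every WT unwounded one. In unwounded cells on the log2 scale GCN2KO differed from WT by 0.24 ± 0.13 (SE, adjusted p = 0.112 by edgeR), with a 95% interval of -0.033 to 0.51. S100A8 rose by 0.23 ± 0.07 (SE, adjusted p = 0.00988 by edgeR) in GCN2KO against WT after HDW and changed by -0.29 ± 0.072 (SE, adjusted p = 0.00302 by edgeR) with HDW in WT cells. The unwounded comparison turned on single libraries, since leaving out GCN2KO unwounded replicate 2 gave 0.33 with an edgeR adjusted p of 0.0144 and leaving out replicates 3 and 5 gave 0.0055.

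S100A7 was scarce, with 193 to 410 read counts in WT unwounded and 271 to 680 in GCN2KO unwounded libraries. Its CPM were 10.2 to 15.5 in WT unwounded, 6.5 to 11.4 in WT HDW, 14.4 to 20.7 among GCN2KO unwounded and 12.3 to 15.9 among GCN2KO HDW libraries, and the genotypes stood apart after HDW and overlapped in unwounded cells. On the log2 scale GCN2KO differed from WT by 0.38 ± 0.12 (SE, adjusted p = 0.00966 by edgeR) unwounded and 0.53 ± 0.13 (SE, adjusted p = 0.00208 by edgeR) after HDW. With HDW it was -0.49 ± 0.14 (SE, adjusted p = 0.00797 by edgeR) in WT and -0.33 ± 0.11 (SE, adjusted p = 0.0408 by edgeR) in GCN2KO cells, and the latter call was lost without GCN2KO unwounded replicates 3 and 5 (-0.27, edgeR adjusted p = 0.139) and in 7 of 10 fits that left out 1 library. S100A7A and S100A7L2 are related copies. The study counted uniquely mapped reads, so the counts of S100A7 are uncertain to the extent that reads fitting several copies were dropped. S100A7L2, an unprocessed pseudogene, had 0 read counts in every library.

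The calprotectin partners did not keep one proportion. The ratio of S100A8 to S100A9 read counts within a library was 0.26, 0.25, 0.258, 0.264 and 0.257 in WT unwounded, 0.246, 0.24, 0.244, 0.253 and 0.239 in WT HDW, 0.203, 0.181, 0.197, 0.187 and 0.199 among GCN2KO unwounded and 0.187, 0.196, 0.183, 0.187 and 0.209 among GCN2KO HDW replicates. All GCN2KO ratios lay below all WT ratios. How often this holds for ratios of other gene pairs was not computed. Single genes stood apart by genotype in 53.3% of those tested unwounded and 57.2% after HDW. The difference of the mean log2 ratios was -0.42 in unwounded cells (p = 0.00794, adjusted p = 0.0119, two-sided exact permutation test) and -0.35 after HDW (p = 0.00794, adjusted p = 0.0119, two-sided exact permutation test), where 0.00794 is the smallest p that 5 against 5 libraries allow and the adjustment covers 12 tests. HDW moved the ratio by -0.076 in WT cells (p = 0.0159, adjusted p = 0.0212, two-sided exact permutation test) and by -0.0084 in GCN2KO cells (p = 0.849, adjusted p = 0.849, two-sided exact permutation test). Within the 4 groups the log2 levels of S100A8 and S100A9 moved together from library to library, with Pearson r = 0.964 over 20 libraries after removal of group means, as a description of libraries that share depth and composition. The same r was 0.954 for S100A2 with S100A9 and 0.946 for S100A2 with S100A8, so it was not particular to the calprotectin pair.

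The 250 bases before the start sites of the pair are shown because both genes are abundant here and vary together between libraries, though not as the only such pair. They are RefSeq sequences of GRCh38.p14, written 5′ to 3′ on the strand of the gene, chr1:153391074-153391323 on the minus strand for S100A8 and chr1:153357604-153357853 on the plus strand for S100A9. Capitals mark TATAAA, the C/EBP-type letters TTNNGNAA on either strand and, in S100A9, the letters AACNGGTT, which GRHL factors can bind.
S100A8: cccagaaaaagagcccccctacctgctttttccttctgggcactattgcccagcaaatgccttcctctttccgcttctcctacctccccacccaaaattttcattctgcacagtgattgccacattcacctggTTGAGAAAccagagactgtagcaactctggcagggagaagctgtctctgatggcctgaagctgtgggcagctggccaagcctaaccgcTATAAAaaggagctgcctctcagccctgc
S100A9: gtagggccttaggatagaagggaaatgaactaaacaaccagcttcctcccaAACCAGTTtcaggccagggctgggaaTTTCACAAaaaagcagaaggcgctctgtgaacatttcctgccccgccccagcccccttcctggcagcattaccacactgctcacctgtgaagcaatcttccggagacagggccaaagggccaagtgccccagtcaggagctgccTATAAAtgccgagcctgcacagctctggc
Both windows hold TATAAA from 29 to 24 bases before the start, and 1 C/EBP-type match each, at 117 to 110 bases in S100A8 and at 173 to 166 bases in S100A9. A set of 6 motifs was searched on both strands in the windows of all 10 members, of which 3 had more than 1 start site, 14 windows in all, and no 2 matches overlapped. A member is counted below where any of its windows holds a match, as S100A16 is by its second window alone. The percentages are of single windows, so counts of members and percentages are unlike measures. TATAAA was found for 4 of 10 members (S100A4, S100A7, S100A8 and S100A9) and in 10.7% of 35116 RefSeq windows of this length. TTNNGNAA was found for 5 of 10 (S100A6, S100A8, S100A9, S100A11 and S100A16) and in 33.2% of windows. TGANTCA, the AP-1 letters, was found for S100A2 alone and in 6.57%, and AACNGGTT for S100A9 alone and in 1.49%. TTCNNNGAA, the STAT letters, and TGATGNAA, the letters of the C/EBP and ATF composite element, were found for none, against 6.57% and 3.14% of windows.

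**Figure D3:**
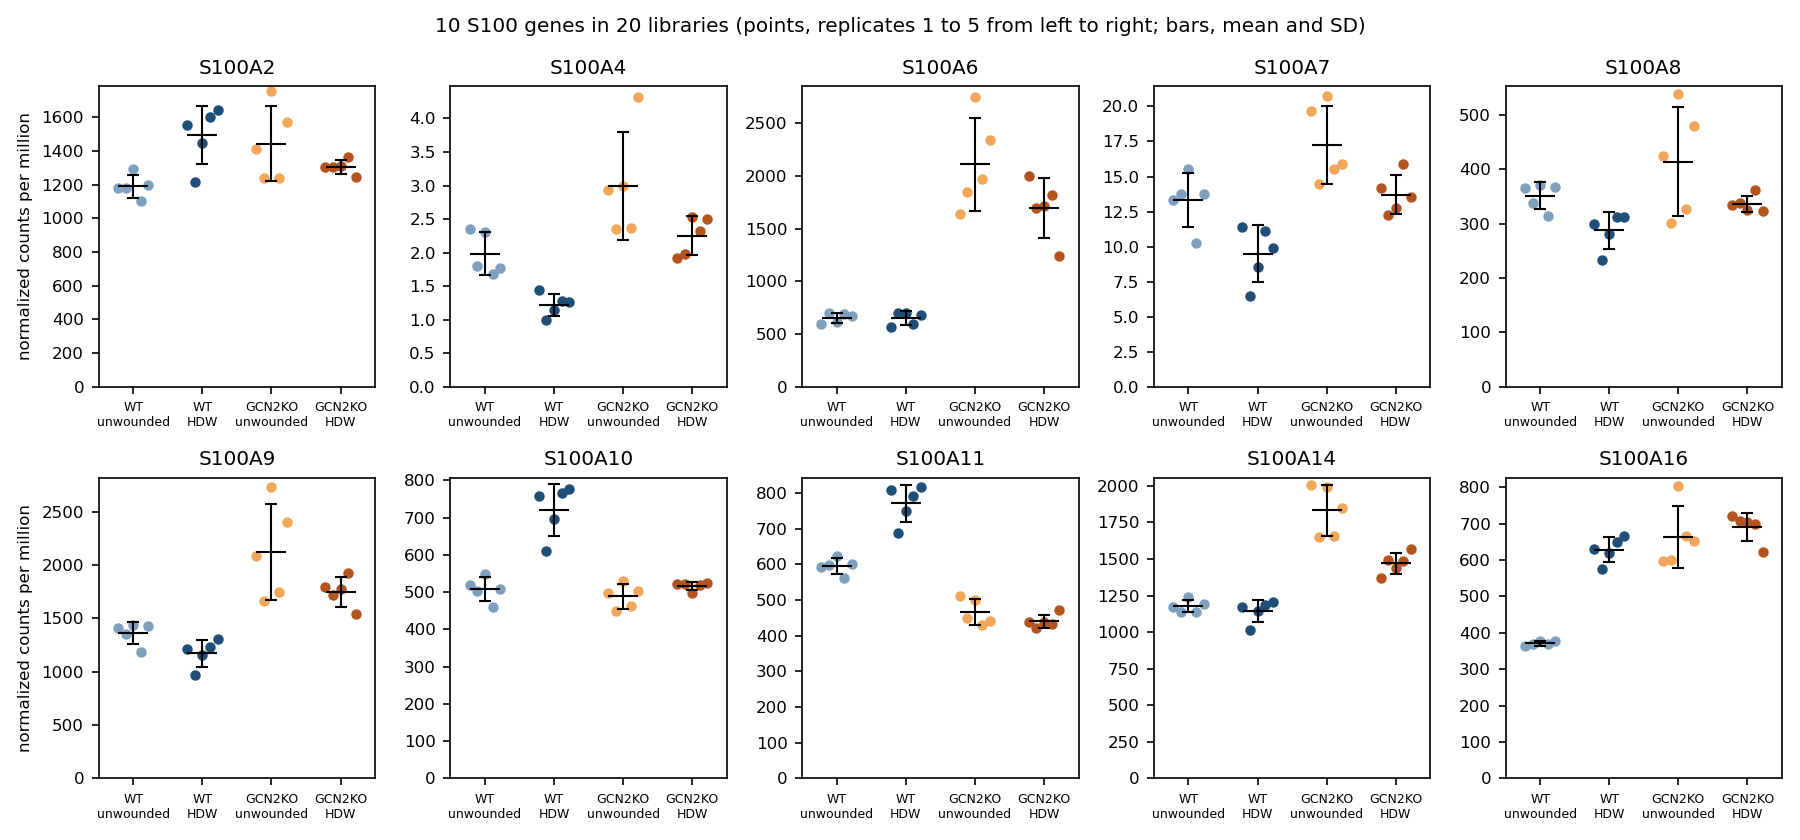
CPM of each of the 10 S100 genes in all 20 libraries, with the mean and SD of each group of 5. GCN2KO libraries stand above WT libraries for S100A6, S100A9 and S100A14 and below them for S100A11, and GCN2KO unwounded libraries are the most spread for S100A2, S100A6, S100A8 and S100A9.

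The annexin partners, S100A10 and S100A11, followed another pattern. S100A10 binds annexin A2 at the inner face of the plasma membrane without needing calcium, and S100A11 binds annexin A1 when calcium rises. Both rose with HDW in WT cells, neither passed the test with HDW in GCN2KO cells, and after HDW both stood below WT in GCN2KO cells. S100A10 (chr1:151982915-151993859, gene ENSG00000197747) and S100A11 (chr1:152032506-152047907, gene ENSG00000163191) are neighbours on the minus strand at the far end of the complex from the other 8 members.

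S100A10 had 519, 504, 549, 461 and 507 CPM in WT unwounded and 758, 609.7, 697, 765 and 777 in WT HDW replicates. GCN2KO cells had 499, 449.6, 530.0, 462 and 502 unwounded and 521, 521, 497, 518 and 526 after HDW. WT HDW libraries stood above the libraries of the other 3 groups, which overlapped. HDW changed S100A10 by a log2 fold change of 0.50 ± 0.062 (SE, adjusted p = 7.14e-06 by edgeR) in WT cells, or 1.42-fold, and by 0.091 ± 0.061 (SE, adjusted p = 0.29 by edgeR) in GCN2KO cells. The response differed by -0.43 ± 0.091 (SE, adjusted p = 0.00138 by edgeR) between genotypes. GCN2KO cells differed from WT cells by -0.053 ± 0.069 (SE, adjusted p = 0.511 by edgeR) unwounded, with a 95% interval of -0.20 to 0.093, and by -0.48 ± 0.059 (SE, adjusted p = 5.24e-06 by edgeR) after HDW.

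S100A11 had 593, 598, 625, 562 and 602 CPM in WT unwounded and 808, 689, 750.1, 793 and 816 in WT HDW replicates. In GCN2KO cells the values were 511, 451, 500.3, 429 and 441 unwounded and 438, 422, 437, 432 and 472 after HDW. All GCN2KO libraries were below all WT libraries, and WT HDW libraries were above WT unwounded ones. S100A11 was lower in GCN2KO than in WT cells, with a log2 fold change of -0.35 ± 0.069 (SE, adjusted p = 0.000294 by edgeR) unwounded and -0.81 ± 0.051 (SE, adjusted p = 9.34e-09 by edgeR) after HDW, to 0.571 of the WT level. With HDW it changed by 0.37 ± 0.046 (SE, adjusted p = 7.51e-06 by edgeR) in WT and by -0.072 ± 0.067 (SE, adjusted p = 0.454 by edgeR) in GCN2KO cells, and the responses differed by -0.46 ± 0.083 (SE, adjusted p = 0.000315 by edgeR).

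The windows of 250 bases before the start sites of these neighbours are shown beside those of calprotectin, since S100A10 and S100A11 moved opposite to S100A9 with HDW in WT cells. They are chr1:151993860-151994109 for S100A10 and chr1:152037005-152037254 for S100A11, both on the minus strand, from the same RefSeq table, with TTNNGNAA matches in capitals. The S100A11 start site lies 10903 bases inside the gene as GENCODE draws it.
S100A10: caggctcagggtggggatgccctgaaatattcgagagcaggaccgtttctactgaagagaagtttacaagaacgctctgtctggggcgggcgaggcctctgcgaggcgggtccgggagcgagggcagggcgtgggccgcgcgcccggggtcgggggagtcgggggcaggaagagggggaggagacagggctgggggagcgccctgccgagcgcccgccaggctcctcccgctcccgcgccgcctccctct
S100A11: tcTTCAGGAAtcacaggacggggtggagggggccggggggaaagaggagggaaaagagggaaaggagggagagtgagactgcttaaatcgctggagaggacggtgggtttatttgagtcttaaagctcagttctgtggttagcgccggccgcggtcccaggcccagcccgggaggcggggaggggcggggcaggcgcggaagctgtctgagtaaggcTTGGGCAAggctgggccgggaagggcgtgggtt
Neither window holds TATAAA. The S100A10 window holds none of the 6 motifs, and the S100A11 window holds 2 C/EBP-type matches, at 248 to 241 and 33 to 26 bases before the start. The share of G and C was 71.2% in S100A10 and 63.6% in S100A11, against 53.2% in S100A8, 55.6% in S100A9 and a median of 58.0% over all windows.

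The annexins and their S100 partners did not keep one proportion either. ANXA1 rose by 1.57 ± 0.11 (SE, adjusted p = 3.33e-09 by edgeR) in GCN2KO against WT unwounded cells and by 1.10 ± 0.081 (SE, adjusted p = 3.37e-08 by edgeR) with HDW in WT cells, and both were DE calls. ANXA2 rose by 0.44 ± 0.088 (SE, adjusted p = 0.000339 by edgeR) and by 0.47 ± 0.053 (SE, adjusted p = 2.93e-06 by edgeR) in the same comparisons, with pseudogene copies that could take a share of its reads. The ratio of S100A11 to ANXA1 read counts was 1.18, 1.29, 1.23, 1.33 and 1.23 in WT unwounded, 0.763, 0.839, 0.795, 0.676 and 0.733 in WT HDW, 0.436, 0.376, 0.283, 0.324 and 0.278 among GCN2KO unwounded and 0.228, 0.232, 0.251, 0.23 and 0.338 among GCN2KO HDW replicates. WT unwounded, WT HDW and GCN2KO libraries formed 3 ranges without overlap. The log2 ratio in GCN2KO cells was lower than in WT cells, with a difference of -1.90 in unwounded cells (p = 0.00794, adjusted p = 0.0119, two-sided exact permutation test) and -1.59 after HDW (p = 0.00794, adjusted p = 0.0119, two-sided exact permutation test), and HDW moved it by -0.72 in WT (p = 0.00794, adjusted p = 0.0119, two-sided exact permutation test) and -0.40 in GCN2KO cells (p = 0.0397, adjusted p = 0.0476, two-sided exact permutation test). The last call was lost in 9 of 10 tests that left out 1 library, all but the one without GCN2KO HDW replicate 5 (exact permutation adjusted p = 0.0571 to 0.0952). The ratio of S100A10 to ANXA2 was 0.223, 0.211, 0.219, 0.198 and 0.204 in WT unwounded, 0.219, 0.211, 0.217, 0.217 and 0.216 in WT HDW, 0.155, 0.16, 0.139, 0.159 and 0.141 among GCN2KO unwounded and 0.175, 0.172, 0.169, 0.167 and 0.179 among GCN2KO HDW replicates. Here HDW left the WT ratio within its spread, with a log2 difference of 0.034 (p = 0.349, adjusted p = 0.381, two-sided exact permutation test), while GCN2KO ratios were lower, with differences of -0.49 unwounded (p = 0.00794, adjusted p = 0.0119, two-sided exact permutation test) and -0.33 after HDW (p = 0.00794, adjusted p = 0.0119, two-sided exact permutation test). With HDW in GCN2KO cells the ratio rose by 0.19 (p = 0.00794, adjusted p = 0.0119, two-sided exact permutation test).

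**Figure D4:**
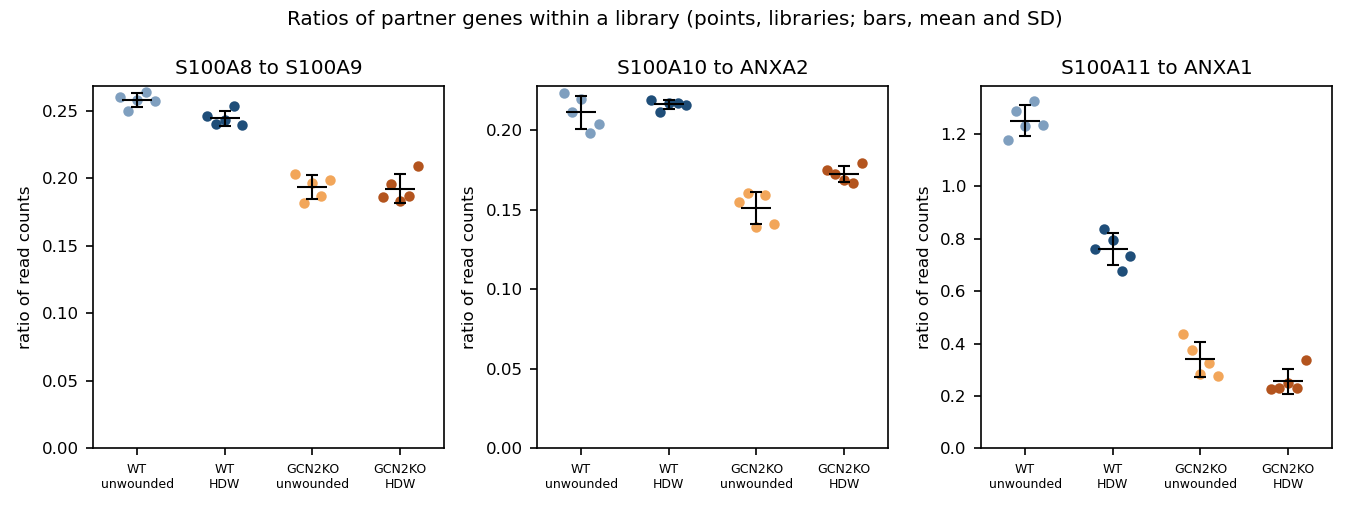
Ratio of read counts within each library for S100A8 to S100A9, S100A10 to ANXA2 and S100A11 to ANXA1 in the 4 groups, as single libraries with the mean and SD. In each panel all GCN2KO libraries lie below all WT libraries, and only the S100A11 to ANXA1 ratio separates WT unwounded from WT HDW libraries. Ratios of other gene pairs were not computed.

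S100A6, S100A4 and S100A2 act inside the cell. S100A6, or calcyclin, binds the ubiquitin ligase adaptor CACYBP, S100A4 binds nonmuscle myosin and is known from moving and mesenchymal cells, and S100A2 is a product of basal keratinocytes and a target of p63. S100A6 was the member that differed most between genotypes. It lies at chr1:153534599-153536244, gene ENSG00000197956 on the minus strand and shares 37 exonic bases, 3.81% of its exons, with an antisense gene on the other strand.

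S100A6 had 594, 695, 612, 693 and 667 CPM in WT unwounded and 564, 703, 700.4, 595 and 683 in WT HDW replicates. GCN2KO cells had 1637, 1847, 2742, 1972 and 2338 unwounded and 1997, 1698, 1716, 1822 and 1241 after HDW. The lowest GCN2KO library, replicate 5 after HDW, was above the highest WT library. On the log2 scale GCN2KO differed from WT by 1.70 ± 0.12 (SE, adjusted p = 3.41e-09 by edgeR) unwounded, or 3.24-fold, and 1.38 ± 0.11 (SE, adjusted p = 5.49e-08 by edgeR) after HDW, or 2.61-fold. Without GCN2KO unwounded replicates 3 and 5 the first was 1.49. With HDW S100A6 changed by -0.0093 ± 0.064 (SE, adjusted p = 0.921 by edgeR) in WT cells and by -0.30 ± 0.14 (SE, adjusted p = 0.123 by edgeR) in GCN2KO cells, neither past the threshold, and the difference of the responses was -0.31 ± 0.17 (SE, adjusted p = 0.191 by edgeR).

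S100A4, at chr1:153543613-153550136, gene ENSG00000196154, was scarce, with 34 to 49 read counts in WT HDW and 44 to 147 in GCN2KO unwounded libraries. Its CPM were 2.35, 1.8, 2.31, 1.68 and 1.78 in WT unwounded and 1.44, 0.995, 1.14, 1.28 and 1.26 in WT HDW replicates, so every WT HDW library was below every WT unwounded one. GCN2KO cells had 2.93, 2.35, 2.99, 2.37 and 4.32 unwounded and 1.91, 1.98, 2.54, 2.33 and 2.5 after HDW. On the log2 scale GCN2KO differed from WT by 0.63 ± 0.18 (SE, adjusted p = 0.00608 by edgeR) unwounded, which was lost without GCN2KO unwounded replicates 3 and 5 (0.39, edgeR adjusted p = 0.0558), and 0.87 ± 0.14 (SE, adjusted p = 5.55e-05 by edgeR) after HDW. HDW gave -0.68 ± 0.15 (SE, adjusted p = 0.00156 by edgeR) in WT cells, and the value in GCN2KO cells was -0.42 ± 0.17 (SE, adjusted p = 0.0891 by edgeR).

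S100A2, at chr1:153561108-153567890, gene ENSG00000196754, had 1181, 1178, 1293, 1104 and 1199 CPM in WT unwounded and 1555, 1215, 1450.3, 1605 and 1646 in WT HDW replicates. GCN2KO cells had 1412, 1242, 1754, 1241 and 1574 unwounded and 1308, 1305, 1313, 1362 and 1244 after HDW. Groups overlapped in all 4 comparisons, with WT HDW replicate 2 low and GCN2KO unwounded replicates 3 and 5 high within their groups. S100A2 rose by 0.32 ± 0.068 (SE, adjusted p = 0.000964 by edgeR) with HDW in WT cells, and in GCN2KO cells the value was -0.13 ± 0.091 (SE, adjusted p = 0.294 by edgeR), a difference of -0.47 ± 0.12 (SE, adjusted p = 0.0065 by edgeR). GCN2KO against WT differed by 0.28 ± 0.094 (SE, adjusted p = 0.0147 by edgeR) unwounded and by -0.19 ± 0.069 (SE, adjusted p = 0.0218 by edgeR) after HDW. The unwounded call was lost without GCN2KO unwounded replicates 3 and 5 (0.13, edgeR adjusted p = 0.0949), and the call after HDW without WT HDW replicate 4 (-0.17, edgeR adjusted p = 0.056) or 5 (-0.16, edgeR adjusted p = 0.0609).

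S100A14 and S100A16 are widespread in epithelia and can pair with each other. They are next to one another on the minus strand, S100A16 at chr1:153606886-153613145, gene ENSG00000188643 and S100A14 at chr1:153614255-153616986, gene ENSG00000189334, yet they responded differently. Both were higher in GCN2KO than in WT cells. S100A16 rose with HDW in WT cells, and S100A14 fell with HDW in GCN2KO cells.

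S100A16 had 364, 368, 376, 368 and 378 CPM in WT unwounded and 631, 575, 619, 650.1 and 666 in WT HDW replicates. GCN2KO cells had 596, 599.6, 805, 665 and 651 unwounded and 719.8, 707, 704, 699 and 623 after HDW. WT unwounded libraries stood below those of the other 3 groups, which overlapped as neighbours. HDW raised S100A16 by 0.76 ± 0.038 (SE, adjusted p = 7.03e-10 by edgeR) in WT cells, or 1.69-fold, the largest rise with HDW among the members, while GCN2KO cells changed by 0.069 ± 0.083 (SE, adjusted p = 0.569 by edgeR). The responses differed by -0.70 ± 0.096 (SE, adjusted p = 1.07e-05 by edgeR), the largest difference among the 10. GCN2KO against WT differed by 0.84 ± 0.079 (SE, adjusted p = 1.14e-07 by edgeR) unwounded and by 0.14 ± 0.05 (SE, adjusted p = 0.0253 by edgeR) after HDW, and the call after HDW was lost when WT HDW replicate 2 or 3 or GCN2KO HDW replicate 1, 2 or 3 was left out (edgeR adjusted p = 0.0543 to 0.0664).

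S100A14 had 1170.1, 1138, 1237, 1139 and 1195 CPM in WT unwounded and 1174, 1014, 1142, 1186 and 1204 in WT HDW replicates. GCN2KO cells had 2007, 1649, 1994, 1660.3 and 1848 unwounded and 1369.5, 1489.6, 1439, 1487 and 1565 after HDW. All GCN2KO libraries were above all WT libraries, and GCN2KO HDW libraries were below GCN2KO unwounded ones. On the log2 scale GCN2KO differed from WT by 0.64 ± 0.076 (SE, adjusted p = 1.55e-06 by edgeR) unwounded, or 1.56-fold, and 0.36 ± 0.053 (SE, adjusted p = 2.61e-05 by edgeR) after HDW. With HDW it was -0.042 ± 0.045 (SE, adjusted p = 0.458 by edgeR) in WT and -0.31 ± 0.075 (SE, adjusted p = 0.0123 by edgeR) in GCN2KO cells. The difference of -0.28 ± 0.09 (SE, adjusted p = 0.0274 by edgeR) was not past the threshold without GCN2KO unwounded replicates 3 and 5 (-0.25, edgeR adjusted p = 0.0536). It was also lost when WT HDW replicate 5, GCN2KO unwounded replicate 3 or GCN2KO HDW replicate 1 alone was left out (edgeR adjusted p = 0.0585, 0.0536 and 0.0514).

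Library ranges of the 2 groups compared did not overlap for 5 of the 10 members in GCN2KO against WT unwounded cells, where this held for 53.3% of genes tested, and for 8 after HDW, against 57.2%. With HDW it held for 5 in WT cells, against 36.9%, and for 1 in GCN2KO cells, against 15.2%.

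The genes whose log2 levels were most like those of a member over the 20 libraries were described by Pearson r, with r after removal of group means in second place. The libraries fall into 4 groups and share depth and composition, so these values describe likeness only. For S100A6 they were GOLGA5 (0.996 and 0.968), SAR1B (0.994 and 0.913) and EMC7 (0.994 and 0.910), genes of Golgi structure, transport and membrane insertion. For S100A9 they were UQCRC2 (0.978 and 0.930), MGST3 (0.977 and 0.913) and SNAP23 (0.977 and 0.901), and for S100A8 UQCRB (0.939 and 0.970), ATP5MJ (0.935 and 0.924) and NSMCE2 (0.934 and 0.898). UQCRC2, UQCRB and ATP5MJ encode parts of the mitochondrial respiratory chain and ATP synthase. S100A2 went with ANXA2 (0.926 and 0.973), its pseudogene ANXA2P2 (0.917 and 0.956) and TMSB4X (0.882 and 0.879), which holds actin monomers. For S100A10 the genes were MAP3K9-DT (0.964 and 0.788), MCM5 (0.953 and 0.697) and MCM2 (0.947 and 0.535), of which both MCM genes encode parts of the replicative helicase. S100A11 went with TCF19 (0.985 and 0.848), SLC25A39 (0.982 and 0.618) and IPO5 (0.980 and 0.847). S100A14 went with DNAJB1 (0.985 and 0.853), RAB25 (0.983 and 0.938) and GCNT3 (0.977 and 0.798), and S100A16 with RSU1 (0.982 and 0.808), GPAT3 (0.978 and 0.602) and DRAP1 (0.977 and 0.685). For the 2 scarce members they were AK9 (0.947 and 0.742), MBD4 (0.943 and 0.745) and BIRC2 (0.942 and 0.750) for S100A4, and PPP1CC (0.918 and 0.728), LCMT1 (0.911 and 0.841) and SH3GLB1 (0.909 and 0.772) for S100A7.

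The counts of the gene lists are to be read against the shares over all genes tested in GCN2KO against WT, 33.4% risen and 33.1% fallen unwounded and 35.9% and 35.8% after HDW. Of 11 further S100 genes, 6 were tested in each comparison. In GCN2KO against WT 2 rose and none fell, both unwounded and after HDW, but the 2 were not the same genes. S100A13 rose in both, by 0.62 ± 0.11 (SE, adjusted p = 0.000122 by edgeR) and 0.35 ± 0.07 (SE, adjusted p = 0.000426 by edgeR). The other was S100P in unwounded cells and S100A7A after HDW. S100P, which lies on chromosome 4, was a DE gene in unwounded cells at 1.05 ± 0.13 (SE, adjusted p = 2.46e-06 by edgeR), with 75.1 to 82.1 CPM in WT and 119.7 to 203 in GCN2KO libraries, and its HDW response was lower in GCN2KO cells, with a difference of -1.12 ± 0.16 (SE, adjusted p = 2.81e-05 by edgeR). S100A7A, the copy of S100A7, had 2 to 12 read counts in WT HDW libraries. It had 6 to 31 in WT unwounded and 13 to 36 in GCN2KO HDW libraries. Its log2 fold change was -2.05 ± 0.36 (SE, adjusted p = 0.000198 by edgeR) for HDW in WT cells. For GCN2KO against WT after HDW it was 2.04 ± 0.32 (SE, adjusted p = 4.71e-05 by edgeR). Too few WT HDW libraries passed the filter on low counts. S100A7A was tested only through the group where it is high, WT unwounded and GCN2KO HDW respectively. Of 7 fused-type genes, which join an S100 domain to long repeats and build the cornified layer, 5 were tested in each comparison of genotypes. CRNN rose by 5.87 ± 0.55 (SE, adjusted p = 1.02e-07 by edgeR), TCHH by 1.70 ± 0.25 (SE, adjusted p = 1.46e-05 by edgeR) and TCHHL1 by 1.55 ± 0.30 (SE, adjusted p = 0.000242 by edgeR) in unwounded GCN2KO cells, all DE genes there and after HDW, and FLG, or filaggrin, was lower in unwounded cells at -0.93 ± 0.17 (SE, adjusted p = 0.000184 by edgeR). FLG was also lower with HDW in WT cells, at -1.01 ± 0.13 (SE, adjusted p = 1.52e-05 by edgeR). CRNN had 0 to 1 read counts in WT unwounded and 13 to 29 in GCN2KO unwounded libraries. In the same groups TCHH had 3 to 14 and 17 to 52, and TCHHL1 had 3 to 12 and 14 to 32. CRNN, TCHH and TCHHL1 did not pass the filter on low counts among WT libraries. They were tested only through the GCN2KO groups, where they are high.

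Of 12 partners that S100 proteins bind, 11 were tested. In GCN2KO against WT 5 rose and 1 fell in unwounded cells, and 5 rose and 5 fell after HDW, with medians of 0.14 and -0.00038 on the log2 scale. ANXA6 rose by 2.03 ± 0.13 (SE, adjusted p = 1.94e-09 by edgeR) and ANXA5 by 1.38 ± 0.088 (SE, adjusted p = 1.37e-09 by edgeR) in unwounded cells. TGM2, a transglutaminase that cross-links S100 proteins and annexins, rose by 2.18 ± 0.075 (SE, adjusted p = 2.14e-11 by edgeR) with HDW in WT cells, and its response was lower in GCN2KO cells, with a difference of -1.54 ± 0.14 (SE, adjusted p = 3.23e-08 by edgeR). After HDW on the log2 scale GCN2KO differed from WT by -1.80 ± 0.077 (SE, adjusted p = 3.29e-10 by edgeR). Of 10 receptors and adaptors 9 were tested in comparisons of genotypes, with 3 risen and 2 fallen unwounded and 6 risen and 2 fallen after HDW. CD36, a scavenger receptor that binds calprotectin with its lipid cargo, fell in GCN2KO against WT unwounded cells, at -2.09 ± 0.20 (SE, adjusted p = 1.22e-07 by edgeR), and with HDW in WT cells, at -2.13 ± 0.16 (SE, adjusted p = 5.27e-08 by edgeR). CD14, which presents ligands to the receptor TLR4, fell at -1.10 ± 0.15 (SE, adjusted p = 6.15e-06 by edgeR), and LY96 rose by 1.24 ± 0.49 (SE, adjusted p = 0.0358 by edgeR) from low counts. LY96 had 2 to 19 read counts in WT unwounded and 11 to 27 in GCN2KO unwounded libraries. It did not pass the filter on low counts among WT libraries, and was tested mainly through the GCN2KO group, where it is high. TLR4 itself had 0 read counts in every library and was not tested.

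Genes listed upstream of the S100 genes come next. One list held 12 cytokines, cytokine receptors and the growth factor receptor EGFR, signals known to raise S100 genes in keratinocytes. Of these 11 were tested. In GCN2KO against WT cells 2 rose and 8 fell unwounded, and 2 rose and 6 fell after HDW. The median of the list was -0.48 and -0.41 on the log2 scale. Among them IL36G at -1.32 ± 0.15 (SE, adjusted p = 7.43e-07 by edgeR), IL20RA at -1.39 ± 0.10 (SE, adjusted p = 7.14e-09 by edgeR) and TNF at -1.52 ± 0.33 (SE, adjusted p = 0.000707 by edgeR) fell as DE genes in unwounded cells. TNF had 8 to 43 read counts in WT unwounded and 2 to 15 in GCN2KO unwounded libraries. It passed the filter on low counts through the WT libraries, where it is high. With HDW in WT cells IL1A rose by 1.15 ± 0.063 (SE, adjusted p = 1.6e-09 by edgeR) and IL36G by 1.09 ± 0.095 (SE, adjusted p = 1.91e-07 by edgeR). Of 18 transcription factors, all tested, 4 rose and 11 fell in unwounded and 6 rose and 10 fell in HDW cells, with NFKB1 at -1.39 ± 0.079 (SE, adjusted p = 4.03e-10 by edgeR), NFKBIZ at -1.15 ± 0.086 (SE, adjusted p = 8.3e-09 by edgeR), FOS at -1.05 ± 0.12 (SE, adjusted p = 1.37e-06 by edgeR) and CEBPD at -1.17 ± 0.20 (SE, adjusted p = 9.74e-05 by edgeR) unwounded. FOSL1, an AP-1 part, rose with HDW in both genotypes, by 1.58 ± 0.061 (SE, adjusted p = 4.94e-11 by edgeR) in WT and 1.08 ± 0.089 (SE, adjusted p = 2.07e-05 by edgeR) in GCN2KO cells. Of 11 other defence genes 8 were tested in comparisons of genotypes, and 3 rose and 2 fell in both. The antimicrobial proteins and protease inhibitors PI3 at 1.96 ± 0.08 (SE, adjusted p = 1.48e-11 by edgeR), RNASE7 at 1.33 ± 0.08 (SE, adjusted p = 7.26e-10 by edgeR) and SLPI at 1.44 ± 0.10 (SE, adjusted p = 5.42e-09 by edgeR) rose in unwounded GCN2KO cells. The chemokine CCL20 fell, at -2.39 ± 0.14 (SE, adjusted p = 6.12e-10 by edgeR). PI3 rose by 1.04 ± 0.079 (SE, adjusted p = 4.46e-08 by edgeR) and CXCL8 by 1.10 ± 0.12 (SE, adjusted p = 2.24e-06 by edgeR) with HDW in WT cells.

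Coding genes from S100A10 to ILF2 on chromosome 1, 55 besides the 10 members, held 29 that were tested in GCN2KO against WT unwounded cells, of which 18 rose and 4 fell, 14 and 3 as DE genes, where 33.4% and 33.1% of all genes tested rose and fell and 16.4% were DE genes. The median was 0.62 on the log2 scale. After HDW 28 were tested, 18 rose and 3 fell. TCHHL1, TCHH, CRNN, CRCT1, LCE3D, LCE1E and SPRR2G did not pass the filter on low counts among WT libraries. They were tested only through the GCN2KO groups, where they are high, and rose as DE genes in both comparisons. After HDW, S100A7A likewise rose as a DE gene and was tested through the GCN2KO libraries. These counts and the median therefore include rises that the filter favoured. SPRR5, named next, did not pass the filter among GCN2KO libraries, and was tested in unwounded cells through the WT libraries. Of 9 small proline-rich (SPRR) genes of the cornified envelope tested in unwounded cells 8 rose and SPRR5 fell, at -1.11 ± 0.28 (SE, adjusted p = 0.00233 by edgeR), and after HDW 7 of 8 rose and SPRR1B stood at -0.035 ± 0.16 (SE, adjusted p = 0.852 by edgeR). The smallest adjusted p-values belonged to SPRR3 at 4.41 ± 0.096 (SE, adjusted p = 3.68e-14 by edgeR), SPRR2D at 4.92 ± 0.16 (SE, adjusted p = 1.21e-12 by edgeR), SPRR2A at 5.47 ± 0.21 (SE, adjusted p = 9.18e-12 by edgeR) and SPRR2E at 5.50 ± 0.21 (SE, adjusted p = 9.18e-12 by edgeR) unwounded, where close copies within the SPRR2 family make single values uncertain. With HDW in WT cells 22 were tested, 10 rose and 5 fell, against 26.1% and 25.2% of all genes, and with HDW in GCN2KO cells 28 were tested, 4 rose and 2 fell, against 11.9% and 10.8%. The members' own fold changes in unwounded cells, -0.35 to 1.70, lay inside the range of these neighbours. The plot in chromosome order shows S100A10 and S100A11 at the low end of the row, beside TCHHL1 and TCHH, which rose.

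**Figure D5:**
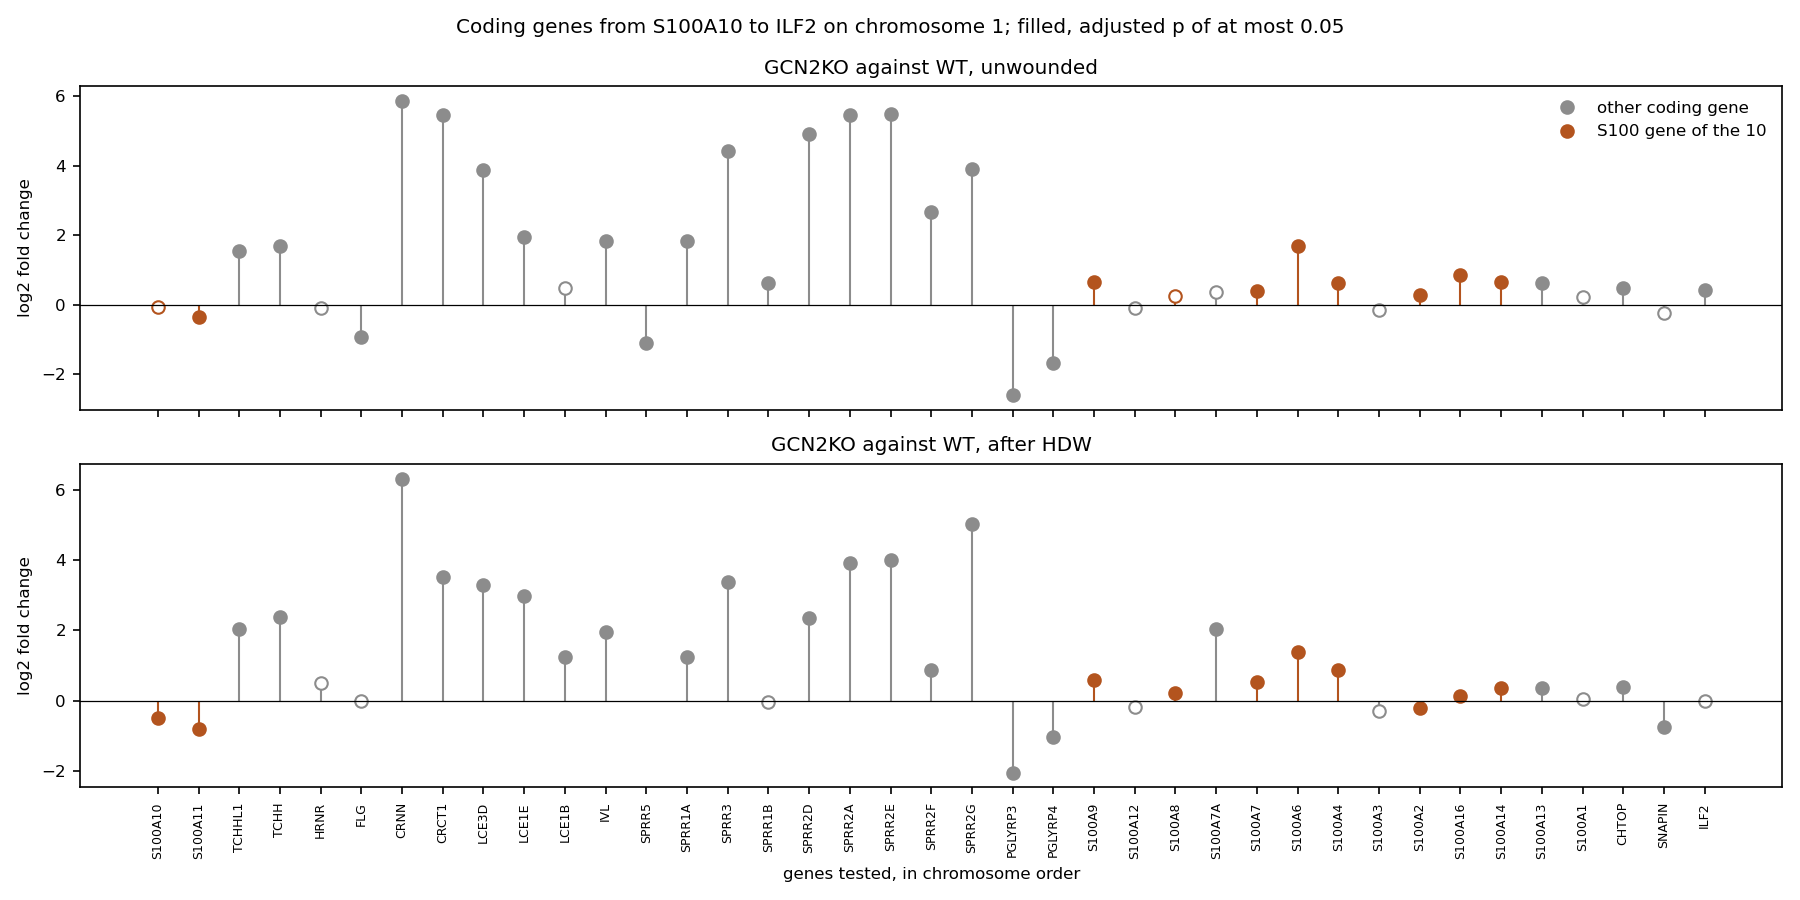
log2 fold changes of GCN2KO against WT for the coding genes tested between S100A10 and ILF2, in chromosome order, unwounded above and after HDW below. Filled points have an edgeR adjusted p of at most 0.05. The 10 S100 genes lie within 2 of 0, while CRNN reaches 5.87 and 6.33 from 0 to 1 read counts in WT libraries.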

How the data were processed

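RNA-seq read counts per gene were analysed for 20 libraries of NTERT keratinocytes, 5 in each of 4 groups. According to the labels and the study's methods, the authors trimmed paired-end reads with Trimmomatic, aligned them to GRCh38 with STAR and counted reads per gene with featureCounts, and these counts were used as deposited, with no normalization. Whether reads were counted by strand is not given in the sources used here. Libraries held 14083504 to 34611570 counts. Of 57500 gene IDs, 56410 were matched to GENCODE annotation for lengths and positions.

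Each pair of groups was fitted with edgeR 4.0.16 (R 4.3.3), with TMM scaling, filterByExpr (minimum count 10, minimum total 15) and the quasi-likelihood test on the libraries of that pair, and the difference of the HDW responses was fitted on all 20. P-values were adjusted by Benjamini-Hochberg over all genes tested. Ratios of counts, with a pseudocount of 0.5, were compared by a two-sided exact permutation test. The procedure was tested on simulated data. Alternatives were DESeq2 1.42.0, other scalings, filters and pseudocounts, thinning, all 20 libraries in one fit, a replicate block and leaving out each library. Leaving out GCN2KO unwounded replicates 3 and 5, and values relative to coding genes of like length, were added after seeing the data.

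Named were all 10 members, EIF2AK4, ANXA1 and ANXA2, at most 4 DE genes of each list in a comparison by adjusted p, and the 3 genes most like each member, by Pearson r of log2 CPM, the TMM-normalized counts scaled to a common total (pseudocount 0.5, mean of at least 1). FLG and SPRR5 in unwounded cells, SPRR1B, S100A13 and S100A7L2 were named outside this rule, after their values were seen. The members and lists were chosen with earlier results of these data known. Promoter sequences came from RefSeq, and no protein sequence was used here.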

Additional observations from a re-analysis of the deposited data

Results flagged for a closer look

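The response to HDW differed between genotypes for 5 members, by the edgeR test of the difference itself, where 12.5% of genes had a lower response in GCN2KO cells. The log2 response in GCN2KO cells minus that in WT cells was -0.4724 for S100A2, -0.4251 for S100A10, -0.4557 for S100A11, -0.2778 for S100A14 and -0.703 for S100A16. For S100A2, S100A10, S100A11 and S100A16 the WT response was a rise, and for S100A14 the GCN2KO response was a fall.

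In 2 of 40 sets of 5 libraries, 1 library stood apart from the other 4 of its group, where chance gives about 1 in 20. S100A10 was lowest in GCN2KO HDW replicate 3, at 496.5 CPM. S100A16 was lowest in GCN2KO HDW replicate 5, at 622.9.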

How the results depend on the processing

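The number of members that fell with HDW in GCN2KO cells, 2, depended most on the processing. It was 4 with no filter, 6 with all 20 libraries in one fit, 1 after thinning to the smallest library, 1 without GCN2KO unwounded libraries 3 and 5, and 1 to 5 when single libraries were left out. The cause was not tested. Replicate numbers did not pair the samples, with mean correlations of -0.159 to 0.0386 between same-numbered libraries. With the replicate block 1 member fell in that comparison, and S100A7 stood at -0.316 with an edgeR adjusted p of 0.0789.

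Some values changed sign, none past the threshold on either side. S100A6 with HDW in WT cells was 0.004107 with no filter and -0.04145 to 0.03854 with 1 library left out. The difference of responses of S100A8 was 0.06091 with library size alone, 0.01844 with the replicate block, 0.2131 without GCN2KO unwounded libraries 3 and 5, and -0.1043 to 0.1088 with 1 library left out. That of S100A9 was 0.006576 with library size alone, 0.1363 without libraries 3 and 5 and -0.1407 to 0.04955 with 1 left out. S100A2 with HDW in GCN2KO cells was 0.01611 without libraries 3 and 5. With HDW in GCN2KO cells the log2 ratio of S100A8 to S100A9 moved by -0.03936 to 0.009628 and that of S100A11 to ANXA1 by -0.5099 to -0.309 with 1 library left out, the latter call being lost in 9 of 10 such tests (exact permutation adjusted p = 0.019 to 0.0952 over the 10).

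After HDW, the calls of GCN2KO against WT for S100A2, S100A8 and S100A16 were not past the threshold with all 20 libraries in one fit (edgeR adjusted p = 0.0503, 0.0803 and 0.0765), nor was that of S100A16 with no filter (0.0796). That of S100A9 with HDW in WT cells was lost with all 20 (0.118), and the difference for S100A14 with library size alone (0.0712). S100A4 had no value for HDW in WT cells under a mean of at least 50 counts. Relative to coding genes of like length, which gives no test, 28 of 50 values of single members moved by more than their SE and 22 did not. All 28 were in comparisons that use the GCN2KO unwounded group. S100A14 then had a difference of responses of -0.07478, S100A2 an unwounded genotype difference of 0.1102 and S100A7 a change of -0.1551 with HDW in GCN2KO cells. The difference of responses was -0.2694 for S100A2, -0.2221 for S100A10, -0.2526 for S100A11 and -0.4999 for S100A16. With HDW in GCN2KO cells S100A2 and S100A11 changed sign (0.03933 and 0.101). So did the differences of responses of S100A8 and S100A9 (0.1938 and 0.1399). Of 600 values of single members with 1 library left out, 562 kept their direction and side of the threshold, as did 393 of 419 under the other alternatives that gave a test.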
